A study of Mus musculus with 2 samples.

Results

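The 10 genes described here are *Trem2*, *Cd36*, *Apoe*, *Abca1*, *Fabp4*, *Fabp5*, *Lpl*, *Plin2*, *Gpnmb* and *Cd9*, a set named for lipid handling in macrophages, out of the 31054 features counted. They were taken by name. Their counts of unique molecular identifiers (UMIs, one for each captured RNA molecule) were read in all cells with 200 or more detected genes and under 10% of UMIs on mitochondrial genes. These were 10057 control cells and 9507 *Smo* cKO cells, 19564 in all, of which 3209 were gated as macrophages or monocytes and are called macrophages below. All class names refer to gates on marker genes. The callus is the tissue that fills a rib defect during repair, and it was profiled by droplet single-cell RNA sequencing at 4 days post injury (dpi), after resection of 3 mm of rib. The control genotype was *Sox9*:CreER;*R26*:tdT;*Smo*f/+ and the *Smo* cKO genotype was *Sox9*:CreER;*R26*:tdT;*Smo*f/f, in mice of 8 to 12 weeks that were given 3 tamoxifen injections, from day −7 to day −5. Both genotypes thus carried the tamoxifen-inducible Cre and the reporter, and the Cre is driven from *Sox9*, so that deletion was directed at the *Sox9* lineage and not at macrophages. Cells of 3 animals were pooled for each genotype, which gave 1 library each. With no replicates, differences between genotypes were beyond any test, and every 95% interval below covers counting error only.

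Macrophages at a wound take up dead cells and debris, and with them large amounts of cholesterol and fatty acids. *Trem2* encodes a surface receptor for lipids and lipoproteins, and cells that depend on it in fat, atherosclerotic plaques and brain share a set of genes for taking up, carrying, storing and exporting lipid. The other members fill these roles. *Cd36* is a scavenger receptor for fatty acids and oxidized lipoproteins, *Apoe* is a lipoprotein component, and *Abca1* is the membrane pump that loads cholesterol onto lipoproteins. *Fabp4* and *Fabp5* are cytoplasmic fatty acid chaperones, *Lpl* releases fatty acids from triglycerides, *Plin2* coats lipid droplets, *Gpnmb* is a lysosomal and surface glycoprotein, and *Cd9* is a tetraspanin of the plasma membrane.

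All 10 are protein-coding genes, and their places on GRCm38 were taken from GENCODE vM21. The receptors are *Trem2* (ENSMUSG00000023992, chromosome 17, 48346401 to 48354147, plus strand) and *Cd36* (ENSMUSG00000002944, chromosome 5, 17781690 to 17888801, minus strand). The lipoprotein and efflux genes are *Apoe* (ENSMUSG00000002985, chromosome 7, 19696109 to 19699188, minus strand) and *Abca1* (ENSMUSG00000015243, chromosome 4, 53030787 to 53159895, minus strand). The chaperones are *Fabp5* (ENSMUSG00000027533, chromosome 3, 10012548 to 10016607, plus strand) and *Fabp4* (ENSMUSG00000062515, chromosome 3, 10204088 to 10208576, minus strand), the lipase is *Lpl* (ENSMUSG00000015568, chromosome 8, 68880491 to 68907448, plus strand) and the droplet protein is *Plin2* (ENSMUSG00000028494, chromosome 4, 86648386 to 86670060, minus strand). The membrane glycoproteins are *Gpnmb* (ENSMUSG00000029816, chromosome 6, 49036546 to 49070929, plus strand) and *Cd9* (ENSMUSG00000030342, chromosome 6, 125460266 to 125494791, minus strand).

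The promoters of 4 members are shown, *Trem2*, *Apoe* and *Gpnmb*, which were higher in *Smo* cKO macrophages, and *Abca1*, which was lower. The promoters of *Cd36*, *Plin2* and *Cd9*, whose ratios were also above 0, are not printed. Whether promoter letters go with the ratio was not tested. Each line holds the 250 bases before the RefSeq start site on GRCm38.p6, from 5′ to 3′ on the strand of the gene. *Trem2* lies at chr17:48346151-48346400 on the plus strand, *Apoe* (the first of 3 start sites) at chr7:19699189-19699438 on the minus strand, *Gpnmb* at chr6:49036268-49036517 on the plus strand and *Abca1* at chr4:53159896-53160145 on the minus strand. Capitals mark matches, on either strand, to a PU.1 core (GAGGAA), an E-box (CACGTG) or a nuclear receptor core (AGGTCA), and the matches shown do not overlap each other.
Trem2: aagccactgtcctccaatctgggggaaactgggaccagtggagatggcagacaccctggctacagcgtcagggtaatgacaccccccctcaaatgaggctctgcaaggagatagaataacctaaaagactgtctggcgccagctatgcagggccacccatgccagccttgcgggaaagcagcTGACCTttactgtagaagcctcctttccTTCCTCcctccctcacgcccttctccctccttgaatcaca
Apoe: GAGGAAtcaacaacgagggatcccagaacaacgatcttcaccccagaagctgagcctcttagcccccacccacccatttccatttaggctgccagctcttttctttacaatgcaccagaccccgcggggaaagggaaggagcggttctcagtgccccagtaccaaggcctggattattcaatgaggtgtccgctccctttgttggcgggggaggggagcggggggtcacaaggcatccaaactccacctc
Gpnmb: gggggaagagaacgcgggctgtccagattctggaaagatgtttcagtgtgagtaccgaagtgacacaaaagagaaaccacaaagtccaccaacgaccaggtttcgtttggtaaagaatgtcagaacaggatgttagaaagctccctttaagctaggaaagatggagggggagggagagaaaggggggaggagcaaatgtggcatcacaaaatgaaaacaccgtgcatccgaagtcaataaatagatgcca
Abca1: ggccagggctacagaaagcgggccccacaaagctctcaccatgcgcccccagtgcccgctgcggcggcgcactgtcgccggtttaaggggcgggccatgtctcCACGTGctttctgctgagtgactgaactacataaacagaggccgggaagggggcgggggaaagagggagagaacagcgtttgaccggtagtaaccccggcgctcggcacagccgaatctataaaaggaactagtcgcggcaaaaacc
*Trem2* had both a PU.1 and a nuclear receptor core, *Apoe* had a PU.1 core, *Abca1* had an E-box and *Gpnmb* had none of these in this window. Of the 7 members with a promoter in the RefSeq table, 2 held a PU.1 core, 3 a nuclear receptor core (*Trem2*, *Cd36* and *Plin2*) and 1 an E-box. Among 32851 promoters of the same length, 23.3% held the PU.1 core, 14.0% the nuclear receptor core and 6.02% the E-box. A match is a run of letters only and is not a measured binding site. *Fabp4*, *Fabp5* and *Lpl* had no entry. The *Fabp5* and *Fabp4* genes both lie on chromosome 3 with 187480 bases between them, and in these cells their levels followed different patterns, as described below.

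The deleted gene was checked first. *Smo* had 1671 UMIs (19.1 CPM, counts per 1000000 UMIs of the cells) in control and 1072 UMIs (12.4 CPM) in *Smo* cKO connective tissue cells, and the log2 ratio of *Smo* cKO over control was −0.63 (interval −0.74 to −0.52). In macrophages *Smo* went from 3.15 CPM (12 UMIs) in control to 1.07 CPM (7 UMIs) in *Smo* cKO cells. In muscle cells it went from 16.1 CPM (43 UMIs) to 7.25 CPM (41 UMIs). On the log2 scale these shifts stood at −1.56 (−3.15 to −0.10) and −1.15 (−1.80 to −0.50). The lower *Smo* level was thus not limited to connective tissue cells. The macrophage counts are very small, and the cause was not tested. A UMI of *Smo* does not tell the deleted allele from an intact one. Kept cells had a median of 8367 UMIs in control and 9092 in *Smo* cKO cells, and macrophages had 2409.5 and 3156. A total of 613 barcodes occurred in both libraries, of which 13 control and 25 *Smo* cKO cells were macrophages. Macrophages were 1382 control cells (13.7%) and 1827 *Smo* cKO cells (19.2%), and all 14 of their markers were found at 50 CPM or more in both libraries. They also held 2270 and 1826 CPM in all of the 9 connective tissue markers, while the 10 endothelial markers summed to 22.6 and 29.4 CPM.

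Macrophages were divided by marker genes into a C1q Mrc1 subset, with the complement and mannose receptor genes of tissue-resident macrophages, an Arg1 Spp1 subset, with arginase and osteopontin, and a Ly6c2 monocyte subset. The C1q Mrc1 subset was 48.8% of control and 42.1% of *Smo* cKO macrophages (675 and 769 cells), and the Arg1 Spp1 subset was 11.3% and 14.2% (156 and 259 cells). The Ly6c2 subset held 16 and 56 cells, and 535 and 743 cells lay between subsets. None of the 10 members was used as a marker.

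Of the 10 genes, 7 were higher in macrophages than in all other gated cells by 6.79-fold to 82.5-fold. The share of all genes that were as high in macrophages is not given here, so this count is not read as a trait of the set. The members were chosen with earlier results of these data known, so these folds describe their levels and do not test the name of the set. In macrophages *Apoe* was 80.5-fold (control) and 82.5-fold (*Smo* cKO) above all other gated cells, *Trem2* 49.6-fold and 55.3-fold, *Cd36* 34.2-fold and 38.9-fold, and *Gpnmb* 22.8-fold and 26.4-fold. *Abca1* was 17.4-fold and 20.5-fold higher, *Plin2* 13.1-fold and 11.1-fold, and *Fabp5* 13.1-fold and 6.79-fold. The other 3 genes did not mark macrophages among callus cells. *Fabp4* was 1.31-fold and 3.37-fold above the other cells and *Lpl* 1.20-fold and 1.47-fold. *Cd9* was below them, at 0.720-fold and 0.748-fold. Macrophages held 3.66% of all control UMIs and 5.92% of all *Smo* cKO UMIs, against 72.5% and 82.2% of the *Apoe* UMIs, 59.4% and 72.6% of the *Trem2* UMIs, and 2.64% and 4.49% of the *Cd9* UMIs.

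**Figure D1:**
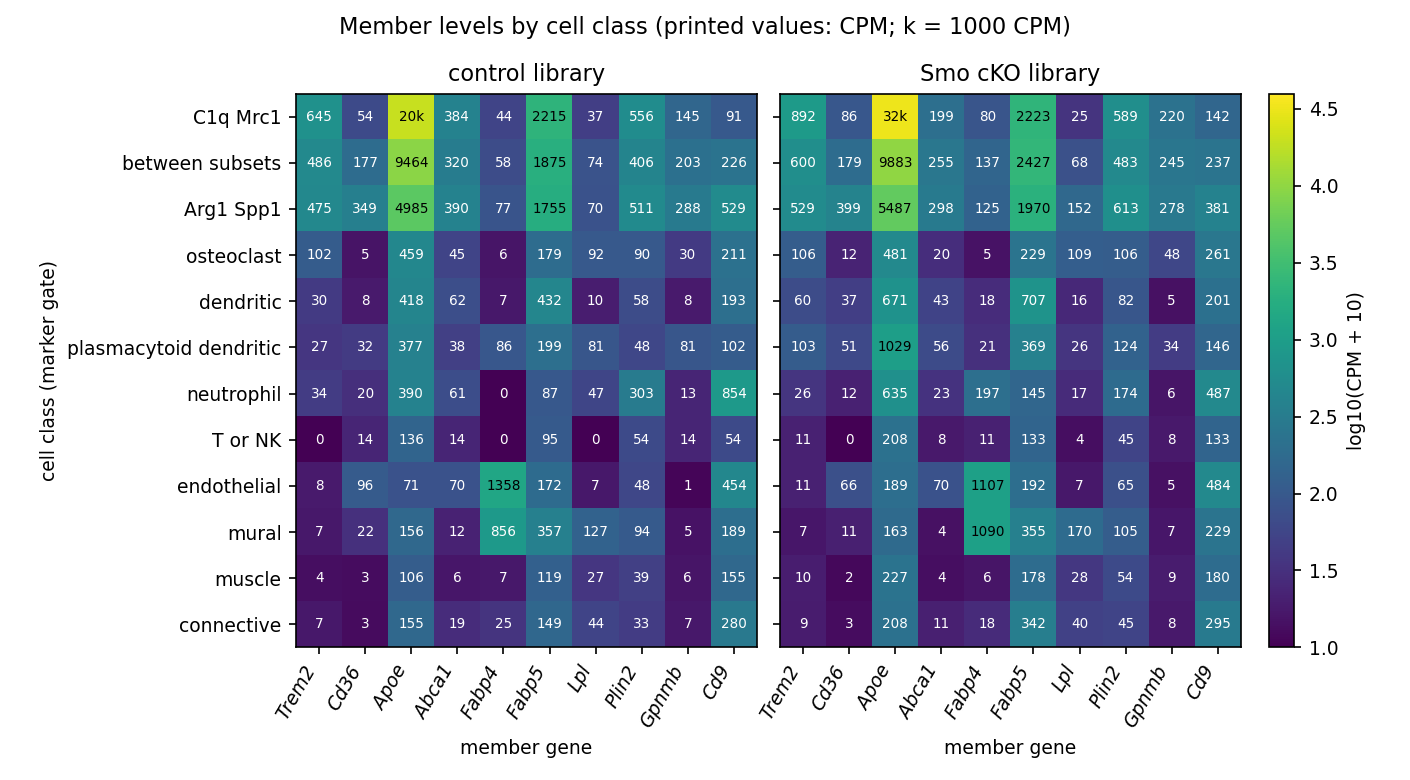
Level of each member (columns) in each cell class (rows) of the control and the *Smo* cKO library, as CPM printed in the cells and as log10(CPM + 10) in color. *Apoe* is brightest in the C1q Mrc1 macrophages of both libraries, *Fabp4* in endothelial and mural cells, and *Cd9* in neutrophils.

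Among receptors, *Trem2* was highest in C1q Mrc1 macrophages, at 645 CPM (interval 608 to 684) in control and 892 CPM (857 to 928) in *Smo* cKO cells. Cells between subsets had 486 and 600 CPM and Arg1 Spp1 macrophages had 475 and 529 CPM, with overlapping intervals in each library. Osteoclasts, which form from the same lineage and signal through TREM2 as they mature, followed at 102 and 106 CPM, below these 3 macrophage groups in both libraries. The Ly6c2 monocytes had 4 and 25 *Trem2* UMIs (92.8 and 143 CPM). Connective tissue cells had 7.30 and 8.98 CPM, and T or NK cells, which do not use the gene, had 0 and 3 UMIs. In the control T or NK cells a count of 0 allows up to 40.7 CPM.

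*Cd36* had another order. Among groups of 20 or more cells in each library, it was highest in Arg1 Spp1 macrophages, at 349 CPM (interval 296 to 409) in control and 399 CPM (359 to 442) in *Smo* cKO cells. Cells between subsets had 177 and 179 CPM. C1q Mrc1 macrophages had 54.5 and 85.6 CPM, and endothelial cells, which take up fatty acids through CD36, had 96.4 and 65.8 CPM. The 2 receptors thus peaked in different macrophage subsets, in both libraries.

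Among the genes for lipid transport, *Apoe* formed a steep gradient across macrophages. C1q Mrc1 macrophages had 19936 and 31755 CPM, cells between subsets 9464 and 9883 CPM, and Arg1 Spp1 macrophages 4985 and 5487 CPM. Of the other classes with 20 or more cells in each library, the highest were osteoclasts in the control, with 459 CPM, and plasmacytoid dendritic cells in the *Smo* cKO library, with 1029 CPM. T or NK cells had 136 and 208 CPM and connective tissue cells 155 and 208 CPM. The connective tissue level was uneven over these cells, as described below. The part of RNA carried over from macrophages in these levels was not tested. *Abca1*, the cholesterol exporter, had 384 CPM in the C1q Mrc1 and 390 CPM in the Arg1 Spp1 subset of control macrophages, with overlapping intervals. Control cells between subsets had less, with 320 CPM (interval 293 to 349), and control Ly6c2 monocytes had 209 CPM (9 UMIs). In *Smo* cKO macrophages the C1q Mrc1 subset had 199 CPM (interval 182 to 216) and the Arg1 Spp1 subset 298 CPM (263 to 335). *Smo* cKO cells between subsets had 255 CPM.

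The 2 fatty acid chaperones were found in different cells. Among classes of 20 or more cells in each library, *Fabp4* was highest in endothelial cells, with 1358 and 1107 CPM, and in mural cells, the contractile cells of the vessel wall, with 856 and 1090 CPM. In macrophages it had 53.2 CPM (203 UMIs in 104 cells) in control and 108 CPM (707 UMIs in 246 cells) in *Smo* cKO cells. Most macrophages therefore had no *Fabp4* UMI, and the 10 cells with the most held 31.0% and 24.9% of the UMIs. *Fabp5*, in contrast, had 2215 and 2223 CPM in C1q Mrc1 macrophages, 1755 and 1970 CPM in the Arg1 Spp1 subset and 1875 and 2427 CPM between subsets. Dendritic cells came next, with 432 and 707 CPM, and mural cells had 357 and 355 CPM.

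*Lpl* was low in most callus cells. Mural cells had 127 and 170 CPM, osteoclasts 92.0 and 109 CPM, and Arg1 Spp1 macrophages 69.8 CPM (interval 47.4 to 99.1) and 152 CPM (128 to 180). C1q Mrc1 macrophages had 37.3 and 24.9 CPM, below the connective tissue cells at 43.9 and 39.5 CPM. The class with the highest *Lpl* level was very small. A total of 4 control cells carried adipocyte markers, and they had 4924 CPM of *Lpl*, 4831 CPM of *Fabp4*, 7416 CPM of *Apoe* and 646 CPM of *Cd36*. Of the adipocyte markers *Adipoq* stood at 1600 CPM in these 4 cells and *Lep* at 0. The *Smo* cKO library had 0 such cells.

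*Plin2* had similar levels in both larger macrophage subsets, with 556 and 589 CPM in the C1q Mrc1 subset and 511 and 613 CPM in the Arg1 Spp1 subset. The Ly6c2 monocytes had less, with 209 CPM (9 UMIs) and 258 CPM (45 UMIs), and neutrophils had 303 CPM (45 UMIs) and 174 CPM (60 UMIs). *Gpnmb* had 288 and 278 CPM in Arg1 Spp1 and 145 and 220 CPM in C1q Mrc1 macrophages, and 30.4 and 47.9 CPM in osteoclasts. *Cd9* was highest outside macrophages, with 854 and 487 CPM in neutrophils, 454 and 484 CPM in endothelial cells and 280 and 295 CPM in connective tissue cells. Within macrophages it was split sharply, from 529 and 381 CPM in the Arg1 Spp1 subset to 90.6 and 142 CPM in the C1q Mrc1 subset.

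The members had different orders across macrophage subsets. The log2 ratio of Arg1 Spp1 over C1q Mrc1 macrophages was computed in each library, and it had the same sign in both for 9 of the 10 members. This count was 7 when macrophages were taken from clusters, and 8 after thinning to 1000 UMIs or with a stricter gate. The share of all genes with the same sign in both libraries is not given here. *Apoe* was lower in the Arg1 Spp1 subset, with −2.00 (interval −2.06 to −1.94) in control and −2.53 (−2.57 to −2.49) in *Smo* cKO cells. *Trem2* was also lower there, by less, with −0.44 (−0.66 to −0.23) and −0.75 (−0.90 to −0.61). *Cd36* was higher there, with 2.68 (2.30 to 3.06) and 2.22 (1.98 to 2.46), and so was *Cd9*, with 2.55 (2.25 to 2.85) and 1.42 (1.21 to 1.63). *Trem2*, which gave its name to the set, thus lay on the opposite side from *Cd36* and *Cd9*.

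*Lpl* followed with 0.91 (interval 0.24 to 1.54) and 2.61 (2.18 to 3.05), *Gpnmb* with 0.99 (0.67 to 1.30) and 0.33 (0.12 to 0.55), and *Fabp4* with 0.80 (0.17 to 1.40) and 0.65 (0.31 to 0.98). *Abca1* had 0.02 (−0.23 to 0.26) and 0.58 (0.37 to 0.79). *Fabp5* stood at −0.34 and −0.17, but its sign turned when macrophages were taken from clusters or a stricter gate, and so did that of *Lpl* in the control. *Plin2*, the exception in sign, stood at −0.12 and 0.06 with intervals that included 0. Past 2-fold higher in the Arg1 Spp1 subset were 2 members in the control, against 6.11% of the 2699 genes at 50 CPM or more, and 3 in the *Smo* cKO library, against 7.26% of 2536 genes. Past 2-fold lower was 1 member, *Apoe*, in each, against 7.89% and 7.37%. The subsets were gated on other genes of the same cells, so that this is a description and not a test.

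**Figure D2:**
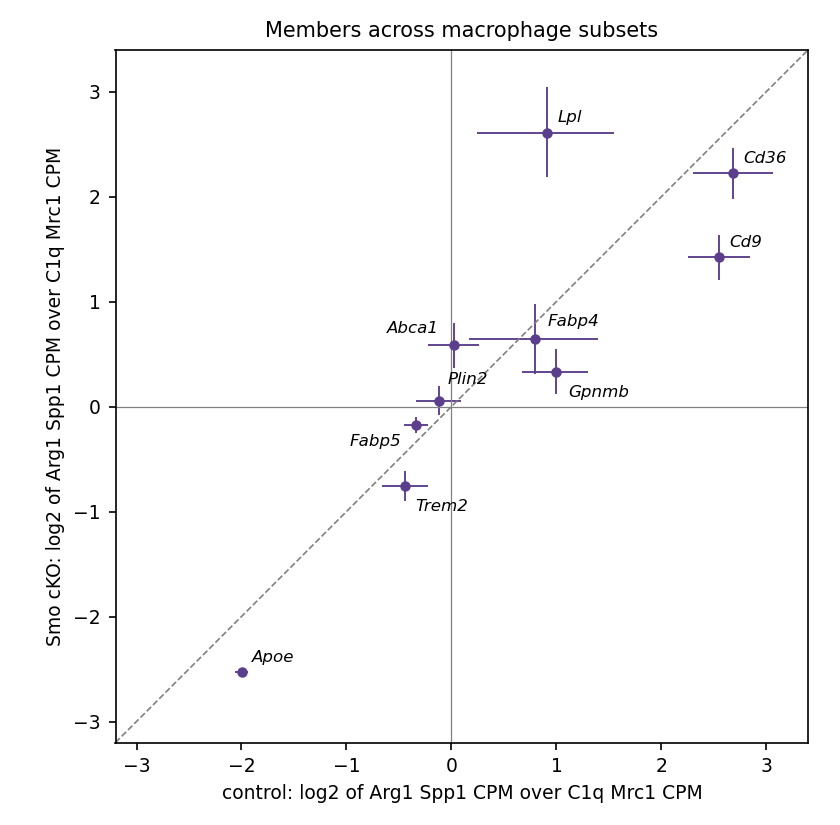
Log2 ratio of the level in Arg1 Spp1 macrophages over that in C1q Mrc1 macrophages, in the control library (horizontal) and the *Smo* cKO library (vertical), with 95% counting intervals as bars and equality as the dashed line. *Apoe* and *Trem2* lie at the lower left, and *Cd36*, *Cd9* and *Lpl* at the upper right.

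How many macrophages carried each transcript was compared with every cell thinned to 1000 UMIs, since *Smo* cKO macrophages had more UMIs per cell. This left 1282 control and 1762 *Smo* cKO macrophages, without the 100 control and 65 *Smo* cKO macrophages that had fewer UMIs. *Apoe* was found in 94.8% and 92.8% of them, *Fabp5* in 54.1% and 52.4%, *Plin2* in 37.2% and 40.0%, and *Trem2* in 38.6% (Clopper-Pearson interval 35.9% to 41.3%) and 45.4% (43.0% to 47.8%). *Abca1* was found in 31.0% (28.5% to 33.6%) and 22.0% (20.1% to 24.0%). *Gpnmb*, *Cd9* and *Cd36* were found in 14.0% and 15.4%, 14.0% and 16.2%, and 10.5% and 14.0%, and *Fabp4* and *Lpl* in 3.74% and 6.36% and in 3.82% and 4.14%. Without thinning *Trem2* was found in 63.7% and 75.7% of macrophages.

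T or NK cells served as the class that should lack *Trem2* and *Apoe*, with 34 and 120 thinned cells and unthinned medians of 1470 and 1702 UMIs. *Apoe* was found in 8.82% and 15.0% of them, *Fabp5* in 8.82% and 14.2%, and *Trem2* in 0 and 1 cell. Osteoclasts had *Apoe* in 30.6% and 32.0% of cells and *Trem2* in 13.1% and 15.0%. Dendritic cells had *Trem2* in 2.62% and 5.98%. Hence the share with *Apoe* in macrophages lay far above the share in lymphocytes, while in other classes a low share from expression and one from RNA of other cells cannot be told apart.

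**Figure D3:**
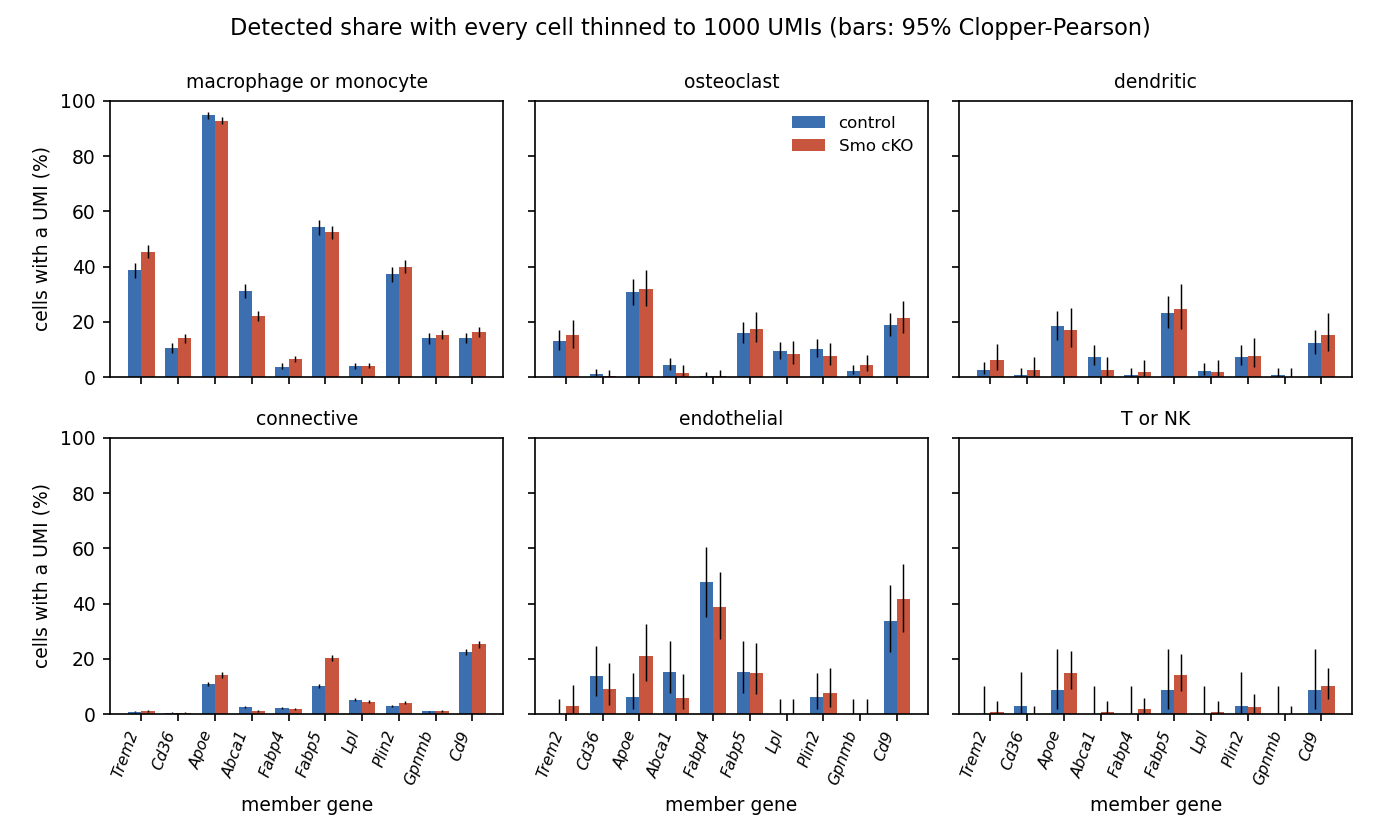
Share of cells with at least 1 UMI of each member after thinning each cell to 1000 UMIs, in 6 cell classes, for the control (blue) and the *Smo* cKO (red) library, with 95% Clopper-Pearson intervals. Of the 6 classes, *Apoe* exceeds 90% in macrophages only, and *Fabp4* is highest in endothelial cells.

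The members were then compared cell by cell. At 1000 UMIs, 2 or more members were found in 87.6% of control macrophages and 85.6% of *Smo* cKO macrophages, and 4 or more in 35.4% and 37.7%. In osteoclasts 2 or more were found in 28.4% and 28.2% of cells, in connective tissue cells in 10.4% and 15.7%, and in T or NK cells in 5.88% and 5.83%. Leaving out *Apoe*, 63.7% and 63.3% of macrophages still had 2 or more. At this depth the most members found in a macrophage was 9 of 10.

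For each of the 45 pairs of members, the number of macrophages with both was divided by the number that the product of the single shares gives. The interval of this ratio lay above 1 for 9 pairs in control and 15 in *Smo* cKO cells, 8 of them in both, and below 1 for none. At 2000 UMIs it did so in both libraries for 7 pairs, 4 of them among these 8: *Gpnmb* with *Cd36*, *Fabp4* and *Fabp5*, and *Cd36* with *Fabp5*. *Fabp4* and *Gpnmb* stood at 1.94 (13 cells with both) and 2.73 (47 cells), *Cd36* and *Gpnmb* at 1.76 and 2.11, and *Fabp5* and *Gpnmb* at 1.52 and 1.60. *Cd36* and *Cd9* stood at 1.81 (interval 1.25 to 2.53) in control and 1.23 (0.911 to 1.63) in *Smo* cKO macrophages. *Trem2* and *Fabp5* stood at 1.14 and 1.15, and at 2000 UMIs at 1.09 (interval 0.992 to 1.20) and 1.08 (0.998 to 1.16). In these counts *Gpnmb* was found with the fatty acid chaperones and *Cd36* more often than the product gives. *Apoe*, found in nearly all macrophages, can hardly exceed the product with any member. These ratios pool all macrophage subsets, and their intervals take the product as fixed. They carry no test and were not set beside pairs of other genes, so the excess is not read as particular to the members.

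**Figure D4:**
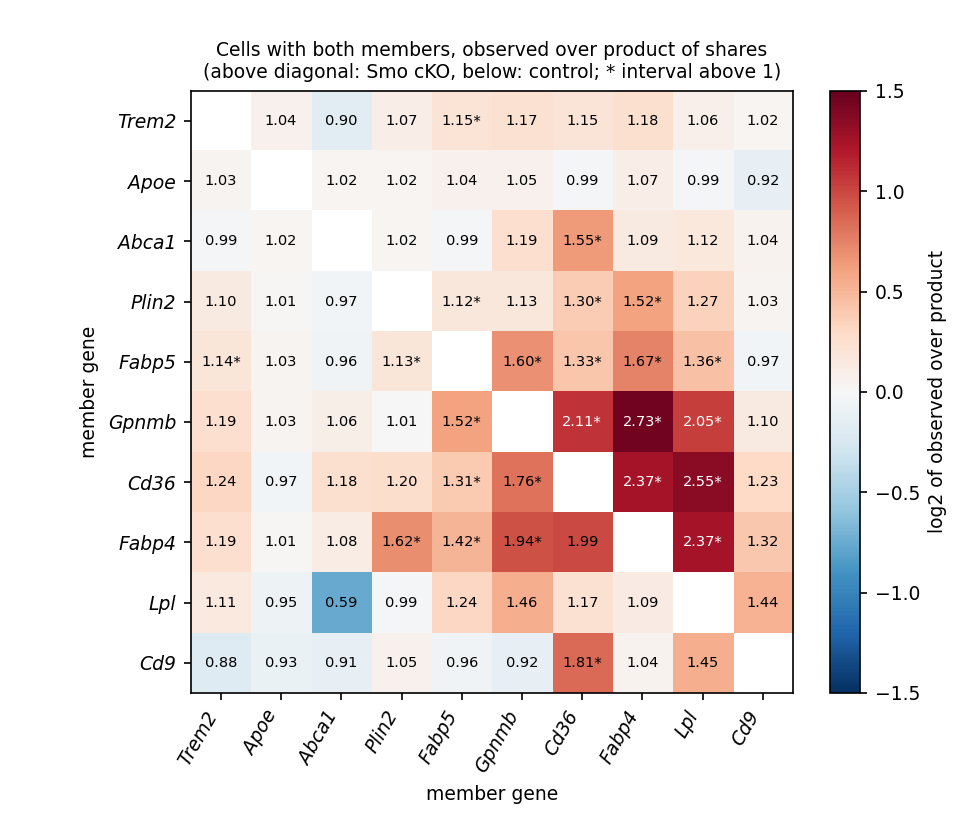
Number of macrophages with both members of a pair over the number from the product of their shares, at 1000 UMIs per cell, below the diagonal for the control and above it for the *Smo* cKO library. Red is over 1 and blue under 1, and an asterisk marks an interval above 1. The red block holds pairs of *Gpnmb*, *Cd36*, *Fabp4*, *Fabp5* and *Lpl*, and pairs of *Lpl* have asterisks above the diagonal only. Below it, *Cd36* with *Cd9* has an asterisk as well.

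The comparison of the genotypes asked whether the genes were set differently in macrophages of a callus whose *Sox9* lineage had lost *Smo*. In all macrophages, *Trem2* had 553 CPM in control and 701 CPM in *Smo* cKO cells, and the log2 ratio was 0.34 (interval 0.27 to 0.42). *Apoe* had 13639 and 18307 CPM, a ratio of 0.42 (0.41 to 0.44), and *Gpnmb* had 184 and 234 CPM, a ratio of 0.35 (0.22 to 0.48). *Cd36* had 139 and 165 CPM, a ratio of 0.25 (0.10 to 0.40). These genes were thus somewhat higher in the *Smo* cKO library, by more than the counting error and by less than 2-fold.

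*Abca1* was the 1 member that was lower, with 356 and 233 CPM and a log2 ratio of −0.61 (interval −0.72 to −0.50). *Fabp4* had the highest ratio, 1.02 (0.79 to 1.25), from 53.2 and 108 CPM. *Fabp5* (1997 and 2218 CPM) and *Plin2* (485 and 539 CPM) stood at 0.15 each, *Cd9* (197 and 215 CPM) at 0.12 (−0.01 to 0.25) and *Lpl* (56.1 and 59.5 CPM) at 0.08 (−0.16 to 0.33). Only *Fabp4* was past 2-fold higher among the 10 members, all of which reached 50 CPM, against a background of 1.85% of 2489 genes. It was at 0.98, 0.90 and 0.95, below the 2-fold line, with a stricter mitochondrial limit, after thinning and with a stricter gate. Past 2-fold lower were 0 members, against 0.201%. At a line of 1.5-fold, 2 members passed in either direction, *Fabp4* and *Abca1*, against 6.99% of the genes. The median log2 ratio was 0.20 over the members and −0.04 over all 2489 genes.

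The ratios were then read within subsets, whose own markers also differed between the libraries. In the C1q Mrc1 subset *Spp1* had 931 CPM in control and 3092 CPM in *Smo* cKO cells. In the same order *C1qa* had 3009 and 4360 CPM and *Mrc1* 532 and 315 CPM. In C1q Mrc1 macrophages *Apoe* had a log2 ratio of 0.67 (interval 0.65 to 0.69), *Trem2* 0.47 (0.37 to 0.57), *Gpnmb* 0.60 (0.39 to 0.82), *Cd36* 0.65 (0.30 to 1.01) and *Cd9* 0.65 (0.38 to 0.93), whereas *Abca1* had −0.95 (−1.12 to −0.79). In Arg1 Spp1 macrophages *Apoe* stood at 0.14 (0.07 to 0.21), *Trem2* at 0.15 (−0.08 to 0.40), *Gpnmb* at −0.05 (−0.37 to 0.26) and *Abca1* at −0.39 (−0.67 to −0.11). These ratios were further from 0 in the C1q Mrc1 subset, and whether the subsets differ could not be tested with 1 library each. For *Gpnmb* the order turned when subsets were taken from clusters, with 0.31 in the C1q Mrc1 and 0.40 in the Arg1 Spp1 subset. *Cd9* was lower in the *Smo* cKO Arg1 Spp1 subset, with −0.47 (−0.72 to −0.23), and *Lpl* was higher, with 1.12 (0.55 to 1.73), from 31 and 138 UMIs.

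*Lpl* was the 1 member of 10 past 2-fold higher in Arg1 Spp1 macrophages, against 2.39% of 2549 genes. In C1q Mrc1 macrophages 0 of the 9 members at 50 CPM passed in either direction, against 3.43% of 2510 genes, but *Abca1* stood at −1.07 with a stricter gate and *Fabp4* at 1.08 in clusters. In Arg1 Spp1 macrophages *Fabp4*, at 0.70, was past 2-fold at 1.28 with the stricter gate. Between subsets 1 of 10 passed higher, *Fabp4* with 58.2 and 137 CPM, against 1.65% of 2492 genes. Macrophages of the C1q Mrc1 subset also had more UMIs per cell in the *Smo* cKO library, with medians of 2378 and 3397 UMIs. The part of UMIs per cell and of the subset shares in the pooled ratios was not tested. With every cell at 1000 UMIs, *Trem2* in all macrophages had a ratio of 0.41, *Apoe* 0.38 and *Fabp4* 0.90.

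**Figure D5:**
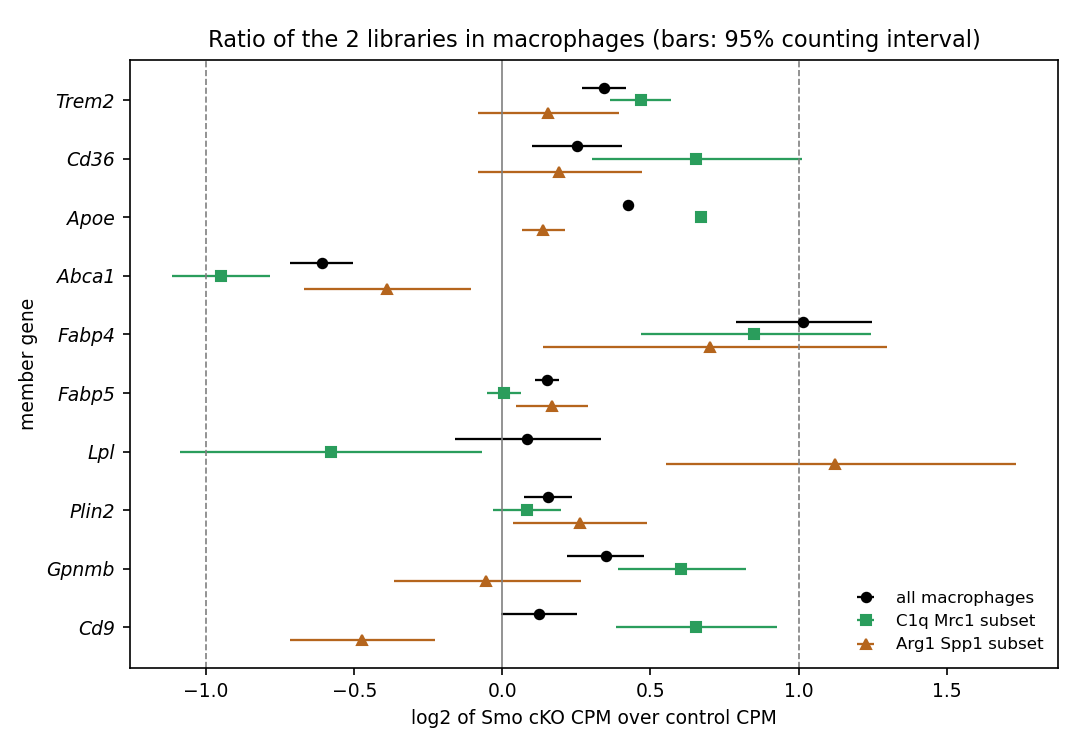
Log2 ratio of the *Smo* cKO over the control level of each member in all macrophages (circles), C1q Mrc1 macrophages (squares) and Arg1 Spp1 macrophages (triangles), with 95% counting intervals as bars and dashed lines at a 2-fold ratio. *Abca1* lies below 0 in all 3, and *Lpl* and *Cd9* lie on opposite sides of 0 in the 2 subsets.

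*Fabp4* is an abundant gene of vessel cells, so macrophages with and without it were compared for markers of other classes. In the control, the 104 macrophages with a *Fabp4* UMI had 21.6 CPM summed over the 10 endothelial markers, and the 1278 without it had 22.7 CPM. In the *Smo* cKO library these were 25.1 CPM in 246 cells and 30.2 CPM in 1581 cells. The 7 mural markers summed to 8.10 and 15.7 CPM in control and to 19.1 and 16.2 CPM in *Smo* cKO cells, and the 6 adipocyte markers to 5.40 and 4.07 CPM and to 0 and 1.44 CPM. The macrophage markers stood at 18002 and 17532 CPM and at 20555 and 22089 CPM. The 9 connective tissue markers summed to 2777 and 2215 CPM in control and to 1776 and 1835 CPM in *Smo* cKO cells. The endothelial sums in cells with *Fabp4* rest on 8 and 25 UMIs and the mural sums on 3 and 19. The part of RNA from vessel cells in the *Fabp4* level was not tested.

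Outside macrophages, *Fabp5* differed between the libraries in connective tissue cells by more than its counting error. It had 149 CPM (13000 UMIs) in control and 342 CPM (29669 UMIs) in *Smo* cKO cells, and the log2 ratio was 1.20 (interval 1.17 to 1.23). It was the 1 member of the 3 at 50 CPM past 2-fold higher there, against 0.74% of 2568 genes. At 1000 UMIs per cell *Fabp5* was found in 10.2% of control and 20.1% of *Smo* cKO connective tissue cells. The libraries filled the clusters of these cells unequally, and cluster 15 held 15.9% of control and 4.79% of *Smo* cKO connective tissue cells. Within the 10 clusters with 20 or more such cells in each library, a comparison chosen after seeing the data, the interval of the *Fabp5* ratio lay above 0 in 9 and below 0 in 1, over a range from −0.39 to 1.60. *Apoe* in the same cells had 155 and 208 CPM, a ratio of 0.43 (0.39 to 0.46). Its level was uneven over the clusters. Cluster 1, with 252 control and 200 *Smo* cKO cells, had 1722 and 2235 CPM of *Apoe* (6189 and 7033 UMIs). Cluster 0, with 1658 and 1131 cells, had 60.9 and 109 CPM. Within the 10 clusters the interval of the *Apoe* ratio lay above 0 in 8 and below 0 in 1, over a range from −0.22 to 2.63. The lowest value came from cluster 8 and the highest from cluster 17, with 46 control UMIs in 45 gated cells. By the markers of all its cells, cluster 8 was named muscle, and clusters 0, 5 and 17 took no name.

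In osteoclasts, 0 of the 6 members at 50 CPM passed 2-fold, against 0.97% of 2372 genes, and *Trem2*, *Apoe* and *Lpl* had ratios of 0.07, 0.07 and 0.25. *Fabp5* had 179 and 229 CPM, *Cd9* 211 and 261 CPM, and *Plin2* 89.8 and 106 CPM. The median log2 ratio of the 6 was 0.24, against 0.07 over all 2372 genes. The ratio of *Lpl* turned to −0.25 with at most 2000 genes per cell and −0.24 after thinning, and that of *Plin2* to −0.18 and −0.405. The 2-fold count left out *Abca1*, *Cd36*, *Gpnmb* and *Fabp4*, which were under 50 CPM in osteoclasts of both libraries. *Gpnmb* had 30.4 CPM (interval 25.0 to 36.6) in control and 47.9 CPM (40.1 to 56.7) in *Smo* cKO osteoclasts. *Fabp4* had 5.75 and 5.00 CPM. *Abca1* had a ratio of −1.18 there (interval −1.64 to −0.73), from 165 and 56 UMIs. *Cd36* had 1.19 (0.36 to 2.06), from 5.48 and 12.5 CPM, but its ratio turned to −1.49 after thinning. In connective tissue cells *Abca1* was also under 50 CPM and lower, at −0.82 (−0.93 to −0.70). In endothelial cells *Abca1* stood at 0.01 (−0.52 to 0.55). The lower *Abca1* level was thus not limited to macrophages. In dendritic cells 0 of 6 passed, against 5.79% of 2402 genes, with *Apoe* at 0.68 (interval 0.44 to 0.92) and *Fabp5* at 0.71 (0.48 to 0.94). In endothelial cells *Apoe* was past 2-fold higher, with 70.8 and 189 CPM, against 2.6% of 3001 genes. In muscle cells it was past 2-fold higher as well, with 106 and 227 CPM, against 1.05% of 2391 genes, but not with at most 2000 genes, in clusters, without the highest doublet scores, without shared barcodes or with the stricter gate. In osteoclasts the interval of *Apoe* included 0 (−0.04 to 0.17). *Apoe* was thus higher in the *Smo* cKO dendritic, endothelial and muscle cells and in macrophages, which held most of its UMIs, although the ratio in dendritic cells was −0.033 when classes were taken from clusters. It was also higher in *Smo* cKO connective tissue cells, plasmacytoid dendritic cells (377 and 1029 CPM) and neutrophils (390 and 635 CPM). In mural cells, T or NK cells and myeloid progenitors the CPM intervals of the 2 libraries overlapped. The part of RNA from macrophages in the other classes was not tested. In neutrophils 2 of 6 members passed, against 22.3% of 2175 genes. They were *Fabp4*, with 0 and 68 UMIs, all of the latter in 1 cell, and *Abca1*, with 9 and 8 UMIs. These neutrophil values rest on very few UMIs.

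Other genes of lipid handling were read from 6 lists of 69 genes, of which 68 were in the table and 19 reached 50 CPM in macrophages. None of the 19 was past 2-fold in either direction, against 2.05% of the 2489 genes at 50 CPM or more. At that share few of any 19 genes would pass. Of 11 genes for TREM2 signaling and lysosomes, *Lgals3*, a galectin, had the highest log2 ratio with 0.45 (1750 and 2384 CPM), and *Syk*, the kinase that acts downstream of TREM2, had the lowest with −0.27 (136 and 113 CPM). The median of the list was 0.11. *Tyrobp*, the adaptor through which TREM2 signals, had 2582 and 2984 CPM and a ratio of 0.21 (interval 0.17 to 0.24).

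Among genes for cholesterol handling, *Npc2*, which carries cholesterol inside lysosomes, stood at 0.35 (1347 and 1711 CPM), and its membrane partner *Npc1* at −0.61 (87.9 and 57.4 CPM). The median of the 4 genes at 50 CPM was −0.29. Of 3 uptake receptors, *Msr1* was highest with 0.26 and *Stab1* lowest with −0.23. *Hilpda*, a lipid droplet protein, was the 1 gene of its list at 50 CPM, with 239 and 334 CPM and a ratio of 0.48 (interval 0.37 to 0.59). No gene of the lists for fatty acid sensing and oxidation and for cholesterol synthesis reached 50 CPM in all macrophages. In the Arg1 Spp1 subset 2 of the former did, *Acsl1*, which activates fatty acids, with 27.0 and 58.4 CPM (12 and 53 UMIs) and a ratio of 1.11 (0.19 to 2.15), and *Acsl4* with a ratio of 0.24 (−0.47 to 0.99).

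Finally, the genes with the most similar pattern were sought over 26 values, from 13 cell classes in each of the 2 libraries, among 5616 genes, with Pearson's r of log2(CPM + 10) as a description. The points share libraries and depth, and no p-value was computed. *Trem2* was most like *Ms4a7* (0.97), *Syngr1* (0.97), *Msr1* (0.96), *Ctsd* (0.95) and *Sirpa* (0.95). *Gpnmb* was most like *Syngr1* (0.96), *Pf4* (0.95), *Ctsb* (0.94), *Ctsd* (0.93) and *Nceh1* (0.92), and *Fabp5* like *Tmem106a* (0.94), *Acp2* (0.92), *Pid1* (0.92), *Ifi207* (0.92) and *C3ar1* (0.91). *Cd36* was most like *Hmox1* (0.91), *Rnf128* (0.88), *Arg1* (0.87), *Lgmn* (0.84) and *Bax* (0.82), and *Hmox1* and *Arg1* are markers of the Arg1 Spp1 subset. Likewise, *Ms4a7* is a macrophage marker and *Pf4* a marker of the C1q Mrc1 subset. The classes were gated on such markers, so a high r with them is not an independent result.

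The genes most like *Fabp4* were *Esam* (0.86), *Eng* (0.84), *Ccnd1* (0.83), *Slc9a3r2* (0.83) and *Epas1* (0.83), and *Esam* and *Eng* are endothelial markers. Between members, *Trem2* and *Apoe* were the most alike (r of 0.96), followed by *Trem2* and *Gpnmb* (0.91), and *Trem2* and *Fabp4* the least (0.04). The classes include C1q Mrc1 macrophages, Arg1 Spp1 macrophages and cells between subsets. Genes high in macrophages and low elsewhere thus get a high r with each other, and it is not read as a particular link. *Cd9* had an r between 0.04 and 0.37 with each of the other members. For *Fabp4* it lay between 0.04 and 0.46, and for *Lpl* between 0.23 and 0.49.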

How the data were processed

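Per the labels and methods, rib calluses of 1 control and 1 *Smo* cKO pool were sequenced as droplet libraries on polyA RNA, and the authors aligned reads to mm10 with Cell Ranger 3.0.2, as given in the submitters' processing notes. The deposited matrices hold raw UMI counts of called cells, 10747 control and 10512 *Smo* cKO barcodes, without normalization, and both files were used. UMIs are molecule counts and were not scaled by gene length.

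Cells with 200 or more genes and under 10% mitochondrial UMIs were kept, with no upper gene limit. This left 104189394 and 110863278 UMIs. Each cell was scored on 23 lists of 183 markers. A marker was taken as the natural log of 1 plus its UMIs per 10000, scaled from its 25% to its 99% quantile over a span of at least 1.5, and a class needed a mean score of 0.2, a lead of 0.05 and 3 detected markers. Tenocyte, chondrocyte and osteoblast classes were merged into connective tissue cells. Subsets needed a lead of 0.1 over the next. These thresholds were set after the cells were seen. A total of 1672 cells (8.55%) stayed without a class, and 783 cells lay within 0.02 of the class thresholds. Scrublet found 0 and 2 doublets at its own threshold, which did not work, so doublets were kept, and an alternative left out the 8% highest scores.

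UMIs were summed by class and library and divided by their total (CPM). Ratios have exact conditional Poisson intervals and shares Clopper-Pearson intervals, at 95%. A count of 0 was bounded by 3 counts. A gene was called where it reached 50 CPM in at least 1 library and a 2-fold ratio. The rule was tried on Poisson counts simulated from the control macrophage profile, with some genes changed. These counts hold no variation between libraries or animals, so they check the computation and not the comparison of genotypes. The members and lists were chosen with earlier results of these data known. Named genes were the 10 members, *Smo*, the highest and lowest ratio of each list at 50 CPM, and the 5 genes most like *Trem2*, *Gpnmb*, *Fabp4*, *Fabp5* and *Cd36* over classes of at least 20 cells per library. *Tyrobp* and the markers *Adipoq*, *Lep*, *Spp1*, *C1qa* and *Mrc1* were named after their values were seen. 1 listed gene, *Clec7a*, was not analysed here. Python 3.11.15, numpy 2.4.6, scipy 1.17.1, pandas 2.3.3, scanpy 1.11.5 and igraph 0.11.9 were used. The alternatives were a limit of 2000 genes, a mitochondrial limit of 5%, Louvain clusters (2000 variable genes without the members, 30 components, 20 neighbours), the doublet filter, thinning to 1000 UMIs, median scaling, a 1.5-fold line and a 10 CPM minimum. Leaving out shared barcodes, a stricter gate (score 0.3, lead 0.1) and the ratios of connective tissue cells within clusters were added after seeing the data.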

Additional observations from a re-analysis of the deposited data

Results flagged for a closer look

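For 5 members the ratio of the libraries had opposite signs in different cells, with counting intervals that excluded 0 on both sides. The share of all genes with such opposite signs is not given here, so the count of 5 is not read as a trait of the set. With 1 library per genotype, none of these differences was tested. In endothelial cells *Cd36* had 96.4 CPM in control and 65.8 CPM in *Smo* cKO cells, and the log2 ratio was −0.55 (interval −1.06 to −0.05), against 0.25 in macrophages. *Fabp4* in endothelial cells had a ratio of −0.29 (−0.42 to −0.17), against 1.02 in macrophages. *Plin2* in neutrophils had a ratio of −0.80 (−1.38 to −0.21), against 0.15 in macrophages, from 45 and 60 UMIs, and it was 0.0753 when cells were taken from clusters and 0.0731 after thinning. Between macrophage subsets, *Lpl* stood at 1.12 in the Arg1 Spp1 and −0.58 (−1.09 to −0.07) in the C1q Mrc1 subset, and *Cd9* at −0.47 in the Arg1 Spp1 and 0.65 in the C1q Mrc1 subset. Both genes kept these signs under the 8 alternatives run.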

How the results depend on the processing

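In macrophages the sign of the ratio was kept under all 8 alternatives for 9 members. *Lpl*, at 0.08, ranged from −0.06 to 0.38, *Trem2* from 0.31 to 0.41, *Apoe* from 0.38 to 0.46, *Abca1* from −0.69 to −0.56 and *Fabp4* from 0.90 to 1.07. The number of members past 2-fold in macrophages was 1. It was 0 with a mitochondrial limit of 5%, after thinning and with the stricter gate, against 1.98%, 2.23% and 2.06% of genes. It was 2 at a line of 1.5-fold (*Fabp4* and *Abca1*), against 6.99% of genes. In osteoclasts it was 2 instead of 0 with at most 2000 genes and after thinning. In dendritic cells it was 2 after thinning and 1 with the stricter gate, instead of 0. In neutrophils it was 1 instead of 2 with the mitochondrial limit and without shared barcodes. In endothelial cells it was 2 with at most 2000 genes and 3 after thinning, instead of 1. In muscle cells it was 0 instead of 1 with at most 2000 genes, in clusters, without the highest doublet scores, without shared barcodes and with the stricter gate. For classes other than macrophages, the share of all genes past 2-fold under these alternatives is not given here. The counts in those classes are thus not read as results about the members. At 2000 UMIs, 2 or more members were found in 94.3% and 95.5% of macrophages. The causes were not tested, apart from the greater depth of the last.

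Signs turned in osteoclasts for *Cd36* (−1.49 after thinning), *Lpl* (−0.25 with at most 2000 genes and −0.24 after thinning) and *Plin2* (−0.18 and −0.405). They turned for *Apoe* in dendritic cells (−0.033 in clusters), for *Plin2* in neutrophils (0.0753 in clusters and 0.0731 after thinning) and for *Plin2* in muscle cells (−0.18 with at most 2000 genes). Between subsets, *Fabp5* turned to 0.16 in clusters and 0.11 with the stricter gate in the control, and to 0.48, 0.16 and 0.45 in clusters, after thinning and with the stricter gate in the *Smo* cKO library. *Lpl* in the control turned to −0.040 and −0.20 in clusters and with the stricter gate. The causes were not tested. Of the values of single genes under an alternative, 694 stayed within the interval of the value given, 148 moved out of it and 16, whose own interval excluded 0, turned sign. A further 44 sign turns, counted among the 694 and 148, were of values whose interval included 0, *Lpl* in macrophages among them. No paired analysis was possible because each genotype has 1 library, and for the same reason no library could be left out.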
